A study of Mus with 9 samples.

Results

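The 10 genes described here encode enzymes that remove reactive oxygen species: the glutathione peroxidases Gpx1, Gpx3 and Gpx4, the superoxide dismutases Sod1, Sod2 and Sod3, catalase (Cat), and the peroxiredoxins Prdx3, Prdx5 and Prdx6. They were taken by their gene symbol from both deposited tables, and Gpx4 was chosen by its group averages, for the higher one with treatment. The TG-treated average enters the comparisons with SAMP8 and with SAMR1, so the values of Gpx4 in both are a description of the choice. Each of the 10 genes had 1 probe set, that is, 1 set of short probes summarized into a single signal, of 22206 on the Clariom S Mouse array. Hippocampal RNA was measured on 3 arrays for each of 3 groups of male mice. The stated age of the mice was 16 weeks, and the tissue was taken after the dosing and testing given below. The SAMR1 group (a senescence-resistant strain, the control for normal aging) and the SAMP8 group (the senescence-accelerated strain) received vehicle. The TG-treated SAMP8 group received trigonelline (TG), an N-methylated form of nicotinic acid found in coffee and fenugreek, in oral doses of 5 mg/kg a day over 30 days, and then through 8 days of water maze testing. All 3 groups went through the water maze testing. SAMR1 and SAMP8 are separate inbred strains, so a difference between them is one of strain, and no SAMR1 group received TG. The vehicle is saline in the sample records and water in the methods. The free-text description of each record names a macrophage line given other agents, which differs from the tissue, source and title fields used for the grouping.

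Superoxide, mostly a by-product of mitochondrial respiration, is turned into hydrogen peroxide by the superoxide dismutases, of which Sod1 works mainly in the cytosol, Sod2 in the mitochondrial matrix and Sod3 outside the cell. Hydrogen peroxide is then reduced to water by catalase in peroxisomes, by the glutathione peroxidases and by the peroxiredoxins, which are recharged mostly by thioredoxin. Gpx4 is the enzyme that reduces lipid hydroperoxides within membranes and so holds back ferroptosis, an iron-dependent form of cell death to which neurons without Gpx4 are prone.

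Every value below is the authors' group average as log2 signal, where a difference of 1 is a doubling. Values per array were not analysed here, so no error can be attached to an average and no test was run. A gene is called higher or lower only where 2 averages differ by more than 1.5-fold (0.585 on the log2 scale), a rule of size. Signals of different probe sets are not comparable as levels, so each gene is compared only with itself across groups. Over all probe sets the median of the averages was 6.09 for SAMR1, 6.04 for SAMP8 and 6.07 for the TG-treated group. For the same reason the labelled tissue could not be checked from the size of its markers' signals. Of 10 hippocampal neuron markers, 3 were higher and 0 lower in SAMP8 than in SAMR1 by over 1.5-fold. Among all probe sets, 5.0% were higher and 6.08% lower there. With TG, 0 of the 10 markers were higher and 1 lower, against 4.48% and 3.74% of all probe sets. Spink8 averaged 5.20, 6.50 and 6.33 in SAMR1, SAMP8 and TG-treated SAMP8, Bok averaged 6.39, 7.05 and 6.79, and Prox1, a marker of granule cells of the dentate gyrus, averaged 11.26, 11.85 and 11.00. Camk2a stood at the maximum of the tables in all 3 groups, where a difference cannot show, and the other 6 lay within the limit in both comparisons.

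With TG, 3 of the 10 genes (Gpx4, Prdx5 and Sod2) were higher and 1 (Sod3) was lower than in nontreated SAMP8 by more than 1.5-fold, and 6 lay within that limit. Among all probe sets, 4.48% were higher and 3.74% lower by that much. The genes were chosen with this comparison known, so nothing is read from the counts or from the median. The median difference of the 10 genes was 0.39, against 0.01 over all probe sets. Between the strains, 1 gene (Sod3) was higher in SAMP8 than in SAMR1 and 0 were lower, where 5.0% and 6.08% of all probe sets were. The median of the 10 genes there was 0.06, against 0.00 over all probe sets. Compared directly with SAMR1, TG-treated SAMP8 had 4 genes above the limit (Gpx4, Gpx1, Prdx5 and Sod2) and 0 below it, with 5.62% and 4.83% of all probe sets so called and a median of 0.55 for the 10 genes. In tissue RNA, fewer cells of a type and less RNA per cell cannot be told apart. These 3 comparisons reuse the same 3 groups of arrays and are not independent of each other.

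The counts of the 10 genes moved with the limit. At a lower limit of 0.32 on the log2 scale, 5 were higher and 1 lower with TG (15.1% and 14.2% of all probe sets), 2 were higher and 0 lower in SAMP8 than in SAMR1 (16% and 16.5%), and 6 were higher and 0 lower in TG-treated SAMP8 than in SAMR1 (16.1% and 16%). At 2-fold, 1 gene, Gpx4, was higher with TG and 0 were lower (0.437% and 0.324%). At that limit 0 were higher or lower between the strains (0.797% and 1.43%), and 1, again Gpx4, was higher and 0 were lower in TG-treated SAMP8 than in SAMR1 (1.12% and 0.684%).

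**Figure D1:**
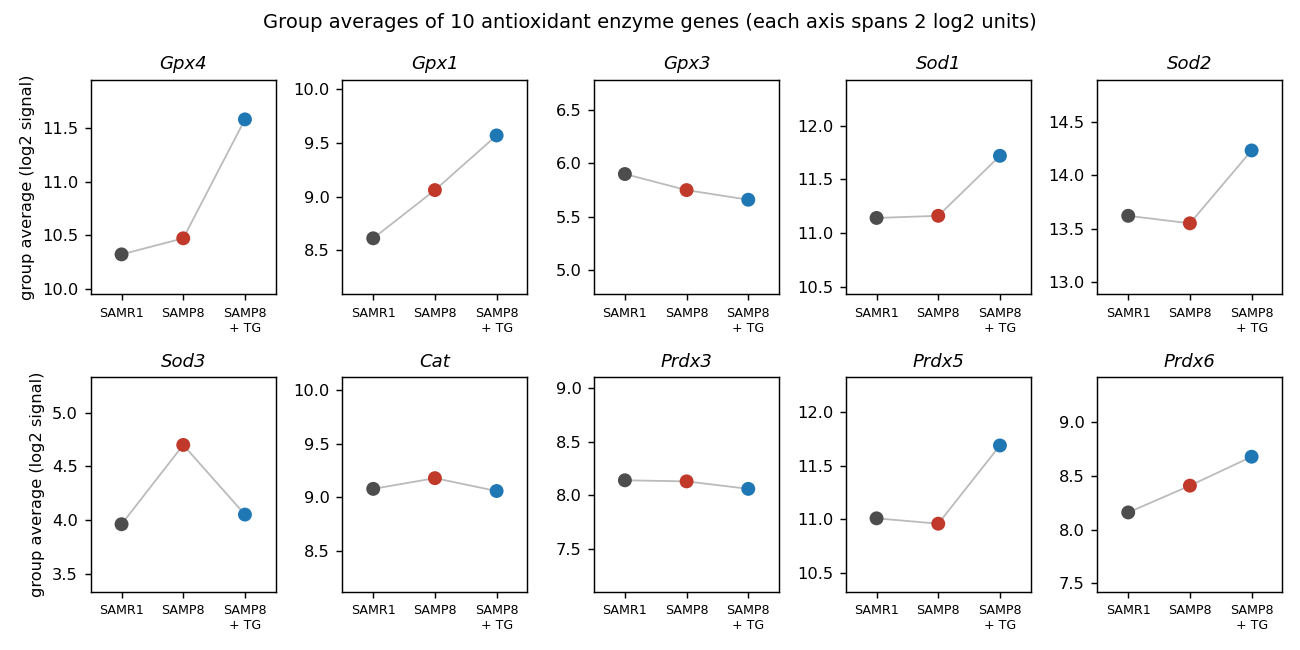
Group averages (log2 signal, y axis) of the 10 genes in SAMR1, SAMP8 and TG-treated SAMP8, 1 point per group and an axis of equal length in each panel. The TG-treated average was the highest of the 3 for 6 genes, the SAMP8 average for Sod3 and Cat, and the SAMR1 average for Gpx3 and Prdx3.

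Gpx4 (chromosome 10, 80047166 to 80056439, GRCm38) averaged 10.32 in SAMR1, 10.47 in SAMP8 and 11.58 with TG. Its SAMR1 and SAMP8 averages were close together, and the TG-treated average stood apart from both. The difference with TG was 1.11 (2.16-fold), and the difference between the strains was 0.15. The Gpx4 gene gives rise to cytosolic, mitochondrial and nuclear forms of the enzyme, which its single probe set does not separate.

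Gpx1 (chromosome 9, 108339080 to 108340342), the most widely expressed glutathione peroxidase of cytosol and mitochondria, averaged 8.61, 9.06 and 9.57 in the same order of groups. Its averages ascended by 0.45 between the strains and by 0.51 with TG, and neither step reached 1.5-fold. Added together they put TG-treated SAMP8 above SAMR1 by 0.96 (1.95-fold), a difference that 1.33% of all probe sets equalled or exceeded. Gpx3 (chromosome 11, 54902854 to 54910387), the glutathione peroxidase secreted into plasma, averaged 5.90, 5.75 and 5.66, and its groups spanned 0.24 in all. Gpx1, Gpx3 and Gpx4 all carry selenocysteine in their active site, and their differences with TG ranged from -0.09 to 1.11.

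Sod1 (chromosome 16, 90220762 to 90226333), the copper-zinc enzyme, averaged 11.14 in SAMR1, 11.16 in SAMP8 and 11.72 with TG. The untreated strains were 0.02 apart, and the difference with TG, 0.56 (1.47-fold), lay just inside the limit. Sod2 (chromosome 17, 13007839 to 13018119), the manganese enzyme, had averages of 13.62, 13.55 and 14.23 in that order. Its TG-treated average was 0.68 (1.60-fold) above SAMP8 and 0.61 above SAMR1, while the strains differed by -0.07. Of the intracellular dismutases, Sod2 passed the limit with TG and Sod1 did not.

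Sod3 (chromosome 5, 52363804 to 52369738), the extracellular dismutase held at cell surfaces and in vessel walls, had another order of groups. It averaged 3.96 in SAMR1, 4.70 in SAMP8 and 4.05 with TG. SAMP8 was above SAMR1 by 0.74 (1.67-fold), the difference with TG was -0.65 (1.57-fold lower), and TG-treated SAMP8 and SAMR1 were 0.09 apart. The same SAMP8 average enters both of these differences, with opposite sign. Sod3 was the only one of the 10 genes whose mean signal lay in the lowest 25% of all probe sets. Of 6 endothelial and smooth muscle markers, 5 had a higher and 1 a lower average in SAMP8 than in SAMR1 (median difference 0.46). With TG, 1 average was higher and 5 were lower than in SAMP8 (median difference -0.28). Tagln was the exception both times. By over 1.5-fold, 2 were higher and 1 lower in SAMP8 than in SAMR1, against 5.0% and 6.08% of all probe sets. With TG, 1 was higher and 2 lower, against 4.48% and 3.74%. Acta2, smooth muscle actin, averaged 5.52, 7.71 and 5.54 in SAMR1, SAMP8 and TG-treated SAMP8, whereas Tagln, another smooth muscle gene, averaged 4.74, 3.91 and 4.62. The mean of the 6 markers was 6.26, 6.79 and 6.30 in the same order, and Acta2 differed most of the 6 in both comparisons. The part of these markers in the Sod3 values was not tested.

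Catalase and Prdx3 gave almost level averages. Cat (chromosome 2, 103453904 to 103485153), the peroxisomal enzyme, averaged 9.08, 9.18 and 9.06 in SAMR1, SAMP8 and TG-treated SAMP8, a span of 0.12. Prdx3 (chromosome 19, 60864066 to 60874538), the peroxiredoxin of the mitochondrial matrix, averaged 8.14, 8.13 and 8.06, a span of 0.08 and the narrowest of the 10 genes.

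Prdx5 (chromosome 19, 6906697 to 6910106), a peroxiredoxin of mitochondria, peroxisomes and cytosol, averaged 11.01 in SAMR1, 10.96 in SAMP8 and 11.69 with TG. The strains differed by -0.05, and TG-treated SAMP8 was above SAMP8 by 0.73 (1.66-fold) and above SAMR1 by 0.68. Prdx6 (chromosome 1, 161240112 to 161251210), the peroxiredoxin with a single active cysteine and a phospholipase activity, averaged 8.16, 8.41 and 8.68. Its averages ascended by 0.25 between the strains and by 0.27 with TG, and TG-treated SAMP8 was 0.52 above SAMR1. Prdx6b, a closely related copy of Prdx6 with a probe set of its own, averaged 4.90, 5.03 and 4.64, and how far the probes of the copies share signal was not analysed here.

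Sod2 and Prdx3 both work in the mitochondrial matrix, and with TG their differences were 0.68 and -0.07, the first past the limit and the second within it. Of the 2 secreted enzymes, Sod3 was lower with TG, and Gpx3, at -0.09, lay within the limit.

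**Figure D2:**
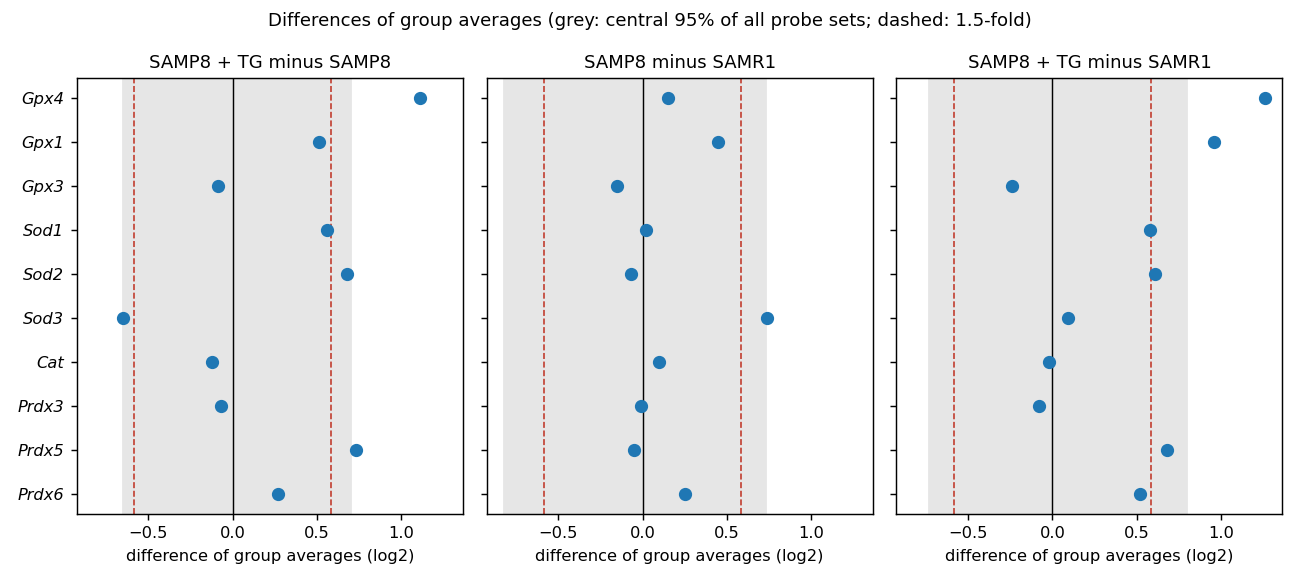
Differences of group averages (log2, x axis) for the 10 genes in the 3 comparisons, with the range holding the central 95% of all probe sets in grey and 1.5-fold as dashed lines. With TG, Gpx4 at 1.11 and Prdx5 at 0.73 lay above the grey range, whose ends were -0.65 and 0.70, and against SAMR1 Gpx4 at 1.26 and Gpx1 at 0.96 did, where it ended at 0.80. Between the strains Sod3 alone lay past its upper end of 0.73. Gpx4 was chosen for its high TG-treated average, which enters both comparisons of that group.

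Over all probe sets, differences with TG and between the strains varied with the length of the gene, in opposite directions. RefSeq spans on GRCm38 were found for 93.5% of the probe sets. The median difference with TG ran from 0.10 in the shortest of 10 equal classes of span (up to 1.71 kb) to -0.13 in the longest (110.74 kb and more). The share higher with TG by over 1.5-fold ran from 8.24% to 1.64%. For SAMP8 minus SAMR1 the median ran from -0.11 in the shortest class to 0.09 in the longest. For TG-treated SAMP8 minus SAMR1 it was -0.04 and -0.03 in those classes. The same nontreated SAMP8 averages enter the TG and the strain differences, with opposite sign. Of the 10 genes, 6 spanned up to 10 kb, and Cat was the longest at 31.25 kb. Among the 2305 probe sets with a span up to 10 kb and a mean signal above the median of all, 11.1% were higher with TG by over 1.5-fold and 3.12% lower. Gpx4 spanned 9.27 kb and Prdx5 3.41 kb. With the median of its class of span subtracted, the difference of Gpx4 was 1.07, that of Prdx5 0.66, that of Sod2 0.66 and that of Sod3 -0.74. The part of gene length in the averages was not tested.

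**Figure D3:**
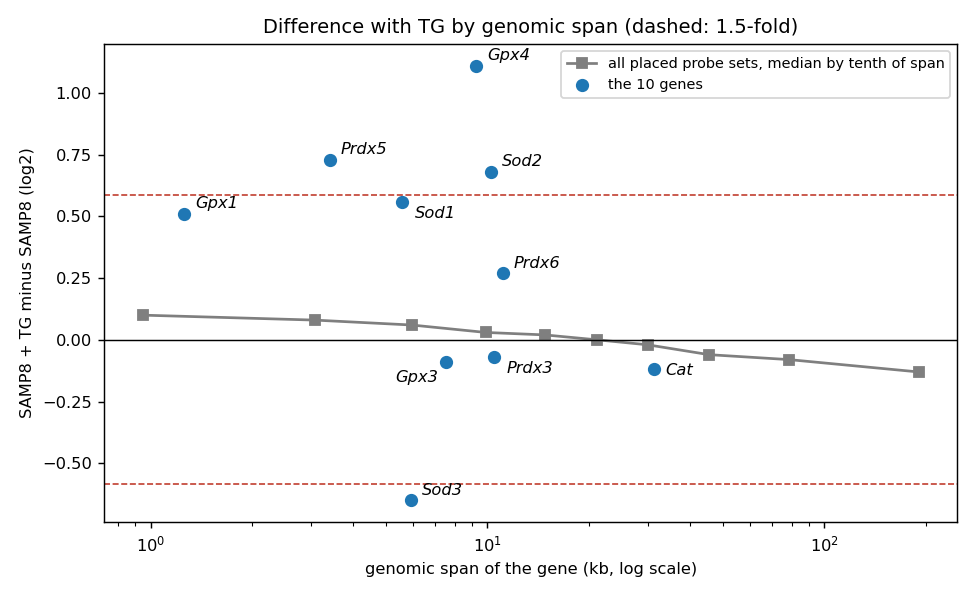
Difference of TG-treated minus nontreated SAMP8 averages (log2, y axis) against the genomic span of the gene in kb (x axis, log scale), with the median of all placed probe sets in each of 10 classes of span as grey squares. The grey medians descend from 0.10 to -0.13, and Gpx4 at 1.11 stands above the other 9 genes.

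The 5 probe sets whose 3 averages, centred on their own mean, lay closest to those of Gpx4 were Higd2a, Pop5, Ypel3, Rps10 and Rpl8, at Euclidean distances of 0.062 to 0.102 log2 units among 10634 probe sets with a single gene symbol and a mean signal above the median. Higd2a, a mitochondrial inner membrane protein of respiratory complex assembly, averaged 8.02 in SAMR1, 8.10 in SAMP8 and 9.20 with TG. Pop5, a subunit of the RNA-processing enzymes RNase P and RNase MRP, averaged 6.66, 6.71 and 7.86. Rps10 and Rpl8 encode ribosomal proteins, and their TG-treated averages were 0.98 and 0.99 above SAMP8. All 5 spanned between 0.92 and 5.38 kb. The likeness is over 3 group averages and is a description.

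Genes related to these 10 were taken as 7 lists, of which 98 of 99 genes had a probe set of their own. The lists hold enzymes that supply and accompany the 10, and also sources of superoxide and genes of lipid peroxidation and iron handling. With TG, 5 of these 98 genes (5.10%) were higher and 6 (6.12%) lower by over 1.5-fold, against 4.48% and 3.74% of all probe sets. Their median difference was 0.01, the same as over all probe sets. Of 9 genes made up of the other peroxidases and Ccs, the copper chaperone of Sod1, only Gpx7, a peroxidase of the endoplasmic reticulum, passed the limit, with averages of 5.03, 4.77 and 5.47 in SAMR1, SAMP8 and TG-treated SAMP8. The abundant cytosolic peroxiredoxin Prdx2 averaged 12.60, 12.73 and 13.13.

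The 20 genes of glutathione synthesis, recycling and use had a median difference with TG of 0.04, against 0.01 over all probe sets. Of these, 3 were higher and 1 was lower, where 4.48% and 3.74% of all probe sets were. The 3 were transferases that join glutathione to other molecules: Gstm5 averaged 10.14 in SAMP8 and 11.01 with TG, Mgst3 averaged 7.84 and 8.52, and Gstm1 averaged 13.09 and 13.74. Slc7a11, the transporter that brings in cystine for glutathione synthesis, averaged 8.84 in SAMP8 and 8.18 with TG. The other 16 lay within the limit. Of the synthesis enzymes, Gclc averaged 10.12 in SAMP8 and 10.14 with TG, Gclm 11.16 and 11.34, and Gss 6.56 and 7.13. Glutathione reductase (Gsr) averaged 9.72 and 9.73, and the glutaredoxin Glrx 10.05 and 10.56.

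The next counts are also with TG, where 4.48% of all probe sets were higher and 3.74% lower by over 1.5-fold. Of 14 genes of the thioredoxin system and methionine sulfoxide reduction, 0 were higher and 1 lower. That gene was Sesn3, a sestrin, at 11.72 in SAMP8 and 11.09 with TG. Among 9 genes that make and insert selenocysteine, 0 were higher and 1 lower, Pstk, the kinase that primes the selenocysteine transfer RNA, at 8.58 and 7.86. Of 14 further selenoproteins, Selenok was higher (11.23 and 11.99) and Selenoi (11.26 and 10.50) and Selenoo (7.32 and 6.66) were lower. The median difference of these 14 with TG was -0.04. Of 18 genes of lipid peroxidation and iron handling around ferroptosis, Por, the cytochrome P450 reductase, was lower with TG at 9.95 against 10.69, and 0 were higher. Acsl4, which loads membranes with the lipids that Gpx4 protects, averaged 12.04 in SAMP8 and 11.71 with TG. All 14 superoxide-producing and related genes lay within 1.5-fold with TG. Their mean array signal was 4.88 in SAMP8 and 4.81 with TG, and the medians over all probe sets were 6.04 and 6.07. These are positions on the scale of the array and are not read as RNA levels.

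Between the strains, 10 of the 98 genes (10.2%) were higher in SAMP8 and 1 (1.02%) was lower, against 5.0% and 6.08% of all probe sets. These counts depended on the scaling, with 6 higher and 2 lower after quantile normalization, 7 and 2 with the median of the signal class subtracted, and 14 and 0 after median centring. Probe sets of a mean signal above the median were called higher in 7.65% and lower in 4.4%. Xdh, xanthine dehydrogenase, which in its oxidase form makes superoxide, averaged 4.48 in SAMR1 and 6.15 in SAMP8, and Ncf1, a subunit of the phagocyte NADPH oxidase, 6.08 and 7.29. The others were Msrb2, Selenoo, Selenom, Prdx1, Ccs, Gclc, Msrb1 and Selenoi, and the lower gene was Gpx5. These genes are named after their values were seen. Prdx1, the other abundant cytosolic peroxiredoxin, averaged 11.81 in SAMR1, 12.49 in SAMP8 and 12.60 with TG, a difference of 0.11 with TG. In TG-treated SAMP8 against SAMR1, 16 of the 98 genes (16.3%) were higher and 1 (1.02%), the iron exporter Slc40a1, was lower, where 5.62% and 4.83% of all probe sets were. The higher count was between 13 and 17 under the other scalings.

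**Figure D4:**
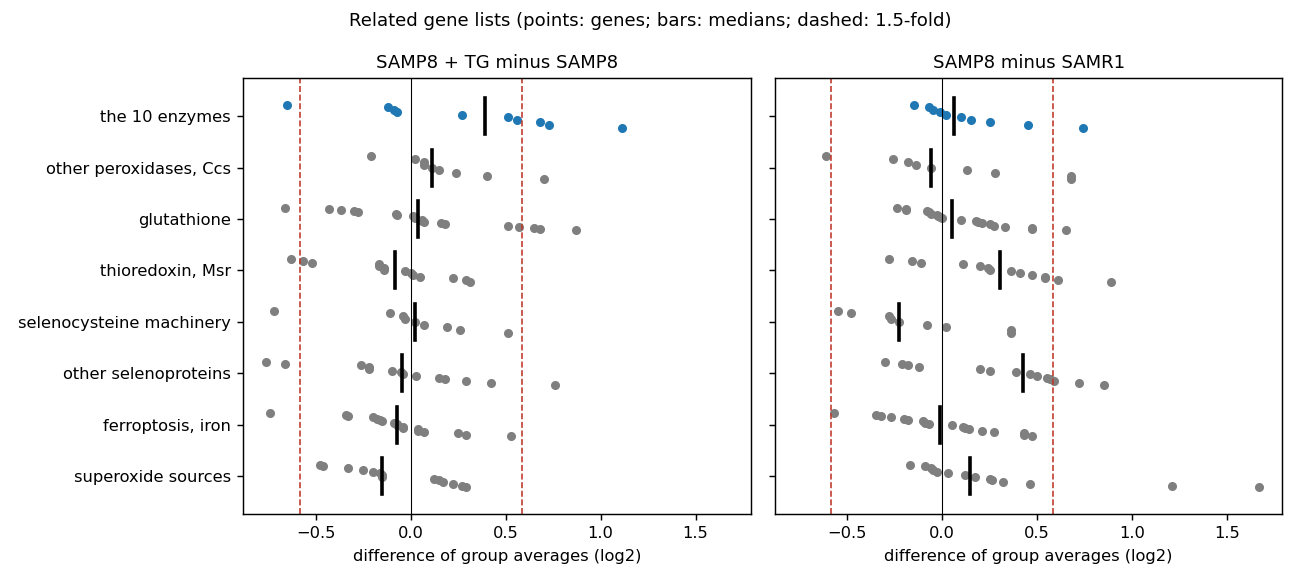
Differences of group averages (log2, x axis) for the genes of the 10 enzymes and of the 7 related lists, TG-treated minus nontreated SAMP8 on the left and SAMP8 minus SAMR1 on the right, with each list's median as a bar. The median of the 10 enzymes was 0.39 with TG, and those of the 7 lists lay between -0.15 and 0.11. The 10 genes were chosen with this comparison known, and Gpx4 for its TG-treated average, so nothing is read from this contrast.

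Markers of other cells in the sample were set beside these values. Counts here are with TG, where 4.48% of all probe sets were higher and 3.74% lower by over 1.5-fold. Red blood cells are rich in catalase, Gpx1 and Prdx2, and of 8 red cell probe sets 0 passed 1.5-fold with TG, with means of 7.43 in SAMR1, 7.41 in SAMP8 and 7.33 with TG. Astrocyte markers, of which 0 of 6 passed the limit with TG, had means of 12.37, 12.69 and 12.59. Of 6 microglia markers 1 was higher, with means of 7.32, 7.56 and 7.52, and of 6 oligodendrocyte markers 1 was higher, with means of 11.58, 11.41 and 11.68. Of 6 choroid plexus markers 1 was higher (Ttr) and 1 lower (Kl), and of 6 meningeal markers 2 were lower (Dcn and Ogn). Their part in the values of the 10 genes was not tested.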

How the data were processed

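RNA was measured on Clariom S Mouse arrays, 3 per group by the sample records and methods, while the series text speaks of duplicates. The authors summarized intensities by SST-RMA in the Transcriptome Analysis Console and deposited 2 tables of log2 group averages, rounded to 0.01, with an annotation of build mm10 (GRCm38). The tables also hold the authors' fold changes, p-values and adjusted p-values, which were not used. Both tables list the same SAMP8 averages. Precision is limited by how few arrays each average holds.

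Differences were taken between averages, with Python 3.11.15, numpy 2.4.6, pandas 2.3.3 and matplotlib 3.10.9. The scalings were tested on simulated data, except the subtraction by class of span. A difference counted past 1.5-fold. Gene positions and spans came from RefSeq. Alternatives were limits of 0.32 on the log2 scale and of 2-fold, median centring, quantile normalization, subtraction of the median of 20 classes of signal, omission of the lowest 25% by signal, and, chosen after the data were seen, subtraction of the median of 20 classes of span.

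The rule named the 10 genes, the genes of 7 related lists past 1.5-fold with TG, and the 5 probe sets most like Gpx4. All other list genes, cell markers and Prdx6b were picked for the text with their values known. The genes, 7 lists and 8 marker lists were chosen with earlier results of these data known. Selenof is listed as a date in the tables, and haemoglobin probe sets carry 2 symbols each. Sequences were not analysed here.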

Additional observations from a re-analysis of the deposited data

How the results depend on the processing

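Under 4 other scalings, 116 of the recomputed differences of the 10 genes stayed on the same side of 1.5-fold, with their direction where they passed it, and 4 did not. Sod1 with TG became 0.62 after quantile normalization and 0.63 with the median of its signal class subtracted, and against SAMR1 it became 0.60 after median centring, 0.58 being within the rounding of the limit. Sod2 against SAMR1 became 0.54 after quantile normalization. With the limit at 0.32 on the log2 scale the counts of the 10 genes were 5 higher with TG and 2 higher in SAMP8 than in SAMR1. With a fold of 2, 1 was higher and 0 lower with TG, 0 were higher in SAMP8, and 1 was higher in TG-treated SAMP8 than in SAMR1. Without the lowest 25% by signal, which removes Sod3, 0 were lower with TG and 0 higher in SAMP8. For the 98 related genes, a limit of 0.32 gave 11 higher and 15 lower with TG, against 15.1% and 14.2% of all probe sets. It gave 29 higher and 5 lower in SAMP8 than in SAMR1 (16% and 16.5% of all probe sets). In TG-treated SAMP8 against SAMR1 it gave 33 higher and 13 lower (16.1% and 16%). For these 98 genes a fold of 2 gave 0 higher and 0 lower with TG (0.437% and 0.324% of all probe sets). It gave 2 and 0 in SAMP8 against SAMR1 (0.797% and 1.43%), and 2 and 0 in TG-treated SAMP8 against SAMR1 (1.12% and 0.684%). In SAMP8 against SAMR1, quantile normalization gave 6 higher and 2 lower, the lower count was 0 after median centring and without the lowest 25% by signal, and 2 with the median of the signal class or of the span class subtracted. The cause of these shifts was not tested. No paired analysis was possible because the tables used hold group averages with no replicate numbers, and for the same reason no replicate could be left out.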
